A study of Mus musculus with 10 samples.

Results

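The Src family kinases Lyn, Fgr, Src, Fyn and Yes1, their inhibitory kinase Csk and the Tec family kinase Btk were followed in primary mouse microglia, the resident macrophages of the brain. These 7 genes were taken by symbol from the 55471 genes of the count tables, and all 7 were matched and passed the filter on low counts. Cultured wild-type cells had received control gapmers (5 libraries) or gapmers directed against the long noncoding RNA 3222401L13Rik (5 libraries), and total RNA was sequenced. Gapmers are antisense oligonucleotides with a DNA core through which RNase H cuts the bound RNA. All cells were kept in serum-supplemented DMEM with antibiotics. The labels give no age, sex, dose or time and name no separate cultures or animals behind the replicates, so the p-values speak only of how these samples spread, and that spread may be technical.

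Src family kinases sit under the plasma membrane and phosphorylate the ITAM tyrosines of receptor adaptors such as Tyrobp and Fcer1g, which then recruit the kinase Syk. Csk phosphorylates the C-terminal tyrosine of Src family kinases and so holds them inactive, while the phosphatase Ptprc removes that phosphate. Btk binds membrane phosphoinositides through its PH domain and activates phospholipase C gamma downstream of Syk and Src family kinases. In macrophages these kinases carry signals from Fc receptors, integrins and Trem2.

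The targeted RNA did not set the groups apart, so the second group is called the libraries labelled knockdown. 3222401L13Rik had 28 to 34 reads in control libraries and 22 to 38 reads in those labelled knockdown, a difference of -0.17 on the log2 scale (95% interval -0.63 to 0.29, adjusted p = 0.541 in edgeR's quasi-likelihood test). Control libraries held 4321316 to 5639040 reads, and knockdown-labelled libraries 5593627 to 6636082 reads. Reads of 1135 olfactory receptor genes were taken as a measure of background. They came to 0.599 ± 0.147 CPM (counts per 1000000 reads, unscaled) per kilobase of exon in control libraries. Those labelled knockdown had 0.257 ± 0.0674 (mean ± SD, n = 5 per group). An exact permutation test, two-sided, gave p = 0.00794, the lowest possible here. Reads of 333 vomeronasal receptor genes gave lower densities, 0.385 ± 0.101 and 0.154 ± 0.0444, so shares reckoned from them would be smaller. The olfactory density times a gene's exon length gives the reads expected from background, and their part of the gene's reads is called its background share. For the target this share was 48.0% (61.4% in control libraries), and with background subtracted 11.9 ± 4.59 and 19.3 ± 6.60 reads were left, a log2 difference of 0.34 when genes under a 5% share set the scale (interval -0.41 to 1.10, adjusted p = 0.584). Of 10 microglia markers 9 were called higher, where 22.9% of all tested genes and 75.5% of those under a 5% background share were, and 8 of the 10 had such a share. Their summed level was 2741 to 3278 CPM (TMM-scaled from here on) in control libraries and 3317 to 3840 CPM in those labelled knockdown. Tmem119 was low in both groups (2.84 and 2.72 CPM, share 34.6%). Summed levels of other cell types, control then knockdown-labelled, were 29.6 to 42.9 and 16.5 to 28.8 CPM for lymphocytes (4 of 7 tested markers lower), 16.1 to 25.6 and 8.10 to 14.2 CPM for neutrophils (3 of 3 lower), and 561 to 673 and 688 to 802 CPM for border macrophages and monocytes. That last sum was nearly all Mrc1, the 1 marker of its list called higher, while the other 3 tested, Cd163 (-0.85), Ccr2 (-0.70) and F13a1 (-0.96), were called lower with shares of 40.6 to 52.6%. Summed levels were 147 to 158 and 139 to 178 CPM for astrocytes (1 of 7 tested lower, 2 higher) and 43.2 to 71.9 and 22.7 to 37.2 CPM for neurons (6 of 6 lower). They were 91.8 to 108 and 102 to 111 CPM for the oligodendrocyte lineage (2 of 7 lower, 1 higher), 30.2 to 40.3 and 14.3 to 25.7 CPM for fibroblasts and mural cells (4 of 4 lower), and 27.7 to 40.7 and 21.7 to 26.5 CPM for endothelium (3 of 3 lower). Of all tested genes 31.3% were called lower, and 49.2% of those with a background share of 20 to 40%. Of the 3775 with a share of 40 to 70%, 2683 were. The lists of lymphocytes, neutrophils, neurons, fibroblasts and endothelium had median shares of 30.5 to 66.1%. No marker was at 0 in all libraries.

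Coordinates are GRCm38. Lyn (ENSMUSG00000042228) lies on chromosome 4 at 3678115 to 3813122 (plus strand), and Fgr (ENSMUSG00000028874) on the same chromosome at 132974095 to 133001910 (plus). Src (ENSMUSG00000027646) lies on chromosome 2 at 157418444 to 157471862 (plus), Fyn (ENSMUSG00000019843) on chromosome 10 at 39368855 to 39565381 (plus) and Yes1 (ENSMUSG00000014932) on chromosome 5 at 32611171 to 32687057 (plus). Btk (ENSMUSG00000031264) lies on chromosome X at 134542336 to 134583570 (minus) and Csk (ENSMUSG00000032312) on chromosome 9 at 57626646 to 57653631 (minus). Values are read counts over exons, by an annotation that is not given. Exon lengths are those of the union of GENCODE M21 exons, UTRs included. Exons of Yes1 share 635 bases with Gm10461 on the other strand, which had 4 to 24 reads itself, and exons of Lyn share 248 bases with Gm26857 on the other strand. The kit marks strand, but the strand setting of the counting is not stated, and reads of such pairs cannot be told apart.

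The study's title names PU.1, a myeloid transcription factor whose ETS-type core motif is GGAA. RefSeq windows of 250 bases before the annotated start (GRCm38.p6, both strands searched) were matched for 6 of the 7 members, with 7 windows. GGAA stood in 6 of the 7 windows, all but that of Fyn, and in 93.5% of all 32841 windows of this length. The longer PU.1-type form GAGGAAGT, which contains GGAA, stood in 0 of the 7 windows and in 2.44% of all windows. The windows of Fgr and Yes1, the pair with few reads, and of Csk, a member with many, are shown. They run 5′ to 3′ on the gene's strand, with GGAA or its reverse complement TTCC in capitals. They hold 3, 2 and 6 matches, which describe these letters only. Csk has a second window, at chr9:57645654-57645903 (minus), with 3 matches. The Fgr window is chr4:132973845-132974094 (plus), the Yes1 window chr5:32610921-32611170 (plus) and the Csk window chr9:57653632-57653881 (minus).
Fgr: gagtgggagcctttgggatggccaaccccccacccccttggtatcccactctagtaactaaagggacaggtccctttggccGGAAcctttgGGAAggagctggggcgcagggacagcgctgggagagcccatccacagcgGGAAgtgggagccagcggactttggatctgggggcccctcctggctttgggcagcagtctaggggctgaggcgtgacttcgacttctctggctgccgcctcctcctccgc
Yes1: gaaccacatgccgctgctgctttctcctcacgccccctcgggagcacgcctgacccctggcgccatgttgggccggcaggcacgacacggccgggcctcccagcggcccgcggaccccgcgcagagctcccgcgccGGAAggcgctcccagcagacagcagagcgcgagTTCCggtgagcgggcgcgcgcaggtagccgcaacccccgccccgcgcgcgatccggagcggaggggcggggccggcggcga
Csk: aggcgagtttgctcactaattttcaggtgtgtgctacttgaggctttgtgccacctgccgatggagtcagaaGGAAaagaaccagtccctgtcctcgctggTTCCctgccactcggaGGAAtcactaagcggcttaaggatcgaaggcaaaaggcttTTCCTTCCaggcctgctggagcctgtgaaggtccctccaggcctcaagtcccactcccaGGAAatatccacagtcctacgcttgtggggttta

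The members fell into 2 classes of level. Per kilobase of exon, which allows genes to be compared, Lyn led with 44.9 ± 4.33 CPM per kb in control libraries and 56.0 ± 2.89 in those labelled knockdown (SD, n = 5 per group here and below). Csk followed with 30.1 ± 1.47 and 34.9 ± 2.23, Fyn with 26.8 ± 1.61 and 32.7 ± 2.45, Btk with 22.2 ± 1.68 and 26.0 ± 1.75, and Src with 10.6 ± 0.980 and 12.4 ± 1.04 CPM per kb. Fgr was at 1.80 ± 0.451 and 1.00 ± 0.191, and Yes1 at 0.993 ± 0.127 and 0.745 ± 0.133 CPM per kb. The step from Src to Fgr was 5.90-fold in control libraries and 12.3-fold in those labelled knockdown, and at least 4.96-fold in each library. There, between Btk and Src (2.10-fold) and between Lyn and Csk (1.55-fold) the ranges over libraries did not meet. Csk exceeded Fyn by 1.09-fold and Fyn exceeded Btk by 1.23-fold, each in 10 of 10 libraries, though their ranges over all libraries overlapped.

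**Figure D1:**
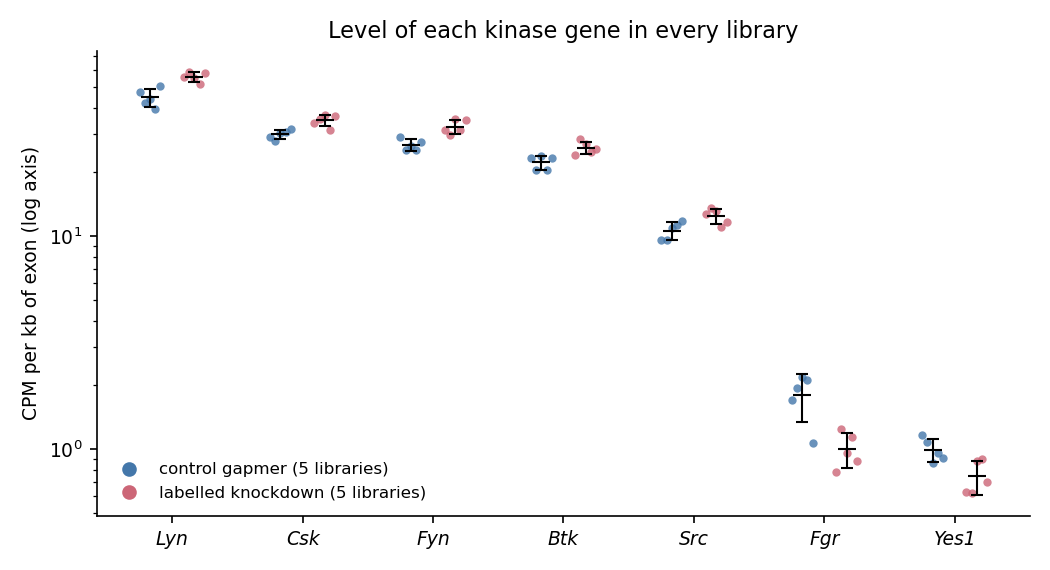
Level of the 7 members in CPM per kilobase of exon (log axis), 1 point per library, with the mean and SD of 5 libraries in black. Lyn is highest, Src is the lowest of the well-read genes, and Fgr lies 5.90-fold (control) and 12.3-fold (knockdown-labelled) below Src by group means, with Yes1 lower still.

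Among the 5 Src family members of the set, within-library shares of reads per kilobase were nearly the same in both groups for the 3 abundant genes. Lyn held 52.6 ± 1.84% in control libraries and 54.5 ± 1.58% in those labelled knockdown, Fyn 31.5 ± 0.931% and 31.8 ± 1.97%, and Src 12.5 ± 1.25% and 12.05 ± 0.863%. Fgr held 2.14 ± 0.625% and 0.979 ± 0.200%, and Yes1 1.17 ± 0.166% and 0.727 ± 0.146%. With expected background reads subtracted, Fgr held 1.52 ± 0.525% and 0.717 ± 0.198%. Yes1 then held 0.514 ± 0.149% and 0.462 ± 0.141%, values that depend on the olfactory receptor density taken as background. Without subtraction, Csk reads per kilobase were 0.354 ± 0.0228 times the sum of the 5 genes in control libraries. They were 0.340 ± 0.00913 times that sum in those labelled knockdown. For Btk these ratios were 0.261 ± 0.0119 and 0.253 ± 0.0138. For both genes the difference was smaller than the larger group SD.

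The main comparison asked whether the kinase genes differed between the libraries labelled knockdown and the controls. Lyn, Fyn, Btk, Csk and Src were higher by 1.16-fold to 1.25-fold, Fgr was lower, at 0.562 times its control level, and Yes1 did not pass the test. Of the 7 members 5 were thus called higher and 1 lower (edgeR quasi-likelihood test, adjusted p under 0.05 over 19263 genes). Of all tested genes 22.9% were called higher and 31.3% lower. The 5 risen members all had a background share under 5%, and 75.5% of all 4728 tested genes under that share were called higher, so their direction was that of most genes read as well as they are. Members had a median log2 fold change of 0.22, tested genes under a 5% share 0.24 and all tested genes -0.10. The size of these rises depended on the scale. With no filter on low counts they ran from 0.35 (Csk) to 0.45 (Lyn) on the log2 scale. Src, Btk and Csk lay slightly below 0 when only genes under a 5% share set the scale.

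Lyn, the main Src family kinase of myeloid cells and B cells, gave the largest rise. Its level in control replicates 1 to 5 was 194, 172, 179, 162 and 206 CPM. In the knockdown-labelled replicates 1 to 5 it was 226, 240.4, 224, 211 and 238 CPM. Every knockdown-labelled library was above every control library. Means were 183 ± 17.6 and 228 ± 11.8 CPM, or 0.32 on the log2 scale (SE 0.06, 95% interval 0.20 to 0.44, adjusted p = 2.8e-05). Its background share was 0.816%.

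Fyn, a broadly expressed Src family kinase, read 127, 110.1, 116, 111 and 121 CPM in control replicates 1 to 5. In the knockdown-labelled libraries it read 137, 131, 155, 137 and 153 CPM. Again the groups did not overlap, which held in this direction for 12.6% of all tested genes. That rate was not computed for genes under a 5% background share, where 3570 of all 4418 higher calls lay. The means of 117 ± 7.00 and 143 ± 10.7 CPM differed by 0.28 on the log2 scale (SE 0.06, interval 0.16 to 0.41, adjusted p = 1.6e-04, share 1.38%).

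Src, the founding member of the family, was at 41.9, 42.0, 47.5, 49.0 and 51.4 CPM in the control libraries. In the knockdown-labelled libraries it was at 55.2, 59.4, 57.0, 48.3 and 50.8 CPM. The groups overlapped, because knockdown-labelled replicates 4 and 5 lay within the control range. Means were 46.4 ± 4.28 and 54.2 ± 4.56 CPM, or 0.22 on the log2 scale (SE 0.08, interval 0.07 to 0.38, adjusted p = 0.0124, share 3.58%). Replicates 1 to 3 of both groups carry sequencing lane 7 in the submitted names and replicates 4 and 5 lane 8. In lane 7 alone Src was at 0.41 (adjusted p = 9.1e-04) and in lane 8 alone at 0.00089 (adjusted p = 0.997, 2 libraries a group). The difference between lanes was -0.41 (interval -0.72 to -0.10) and did not pass over all genes (edgeR interaction term, adjusted p = 0.965), where 0 genes passed and 878 had an unadjusted p under 0.05. In lane 8 alone no member kept its call, though Lyn (0.31), Fyn (0.34) and Btk (0.23) had values like those of the whole set.

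Csk, the kinase that shuts off the Src family, was at 109.6, 105, 114, 116 and 119 CPM in the control libraries and at 127, 133, 139, 118 and 136 CPM in the knockdown-labelled ones. Only knockdown-labelled replicate 4 lay inside the control range. Means were 112 ± 5.49 and 131 ± 8.35 CPM (log2 fold change 0.22, SE 0.06, interval 0.09 to 0.34, adjusted p = 0.0029, share 1.27%). Btk, the Tec family kinase that loss-of-function mutation links to B cell deficiency, was at 73.4, 64.2, 74.9, 64.1 and 73.04 CPM in the control libraries. In the knockdown-labelled ones it was at 76.001, 89.6, 85.1, 77.8 and 80.9 CPM. These groups did not overlap, though the lowest knockdown-labelled library (76.001 CPM) was close to the highest control (74.9 CPM). Means were 69.9 ± 5.30 and 81.9 ± 5.51 CPM (log2 fold change 0.23, SE 0.07, interval 0.09 to 0.36, adjusted p = 0.00405, share 1.71%).

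Setting the scale by the 4728 genes under a 5% background share removed these 5 calls. The 5 members belong to that set, whose median in the main test was 0.24. Values near 0 on this scale thus mean a change like that of the set, and do not show that there was none. On that scale Lyn was at 0.07 (interval -0.0063 to 0.16, adjusted p = 0.125) and Fyn at 0.04 (interval -0.05 to 0.13). Src was at -0.02 (interval -0.16 to 0.12), Btk at -0.02 (interval -0.13 to 0.09) and Csk at -0.03 (interval -0.12 to 0.06). There 1.62% of all tested genes were called higher and 44.6% lower, and 0 members were called higher and 2 lower (Fgr and Yes1). With background reads also subtracted 0 members and 0.798% of all tested genes were called higher. All 5 intervals on this scale lie between -0.16 and 0.16. With upper-quartile scaling Lyn (0.17, adjusted p = 0.00237) and Fyn (0.14, adjusted p = 0.0199) kept their calls, and with library totals alone Lyn did (0.12, adjusted p = 0.0212).

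**Figure D2:**
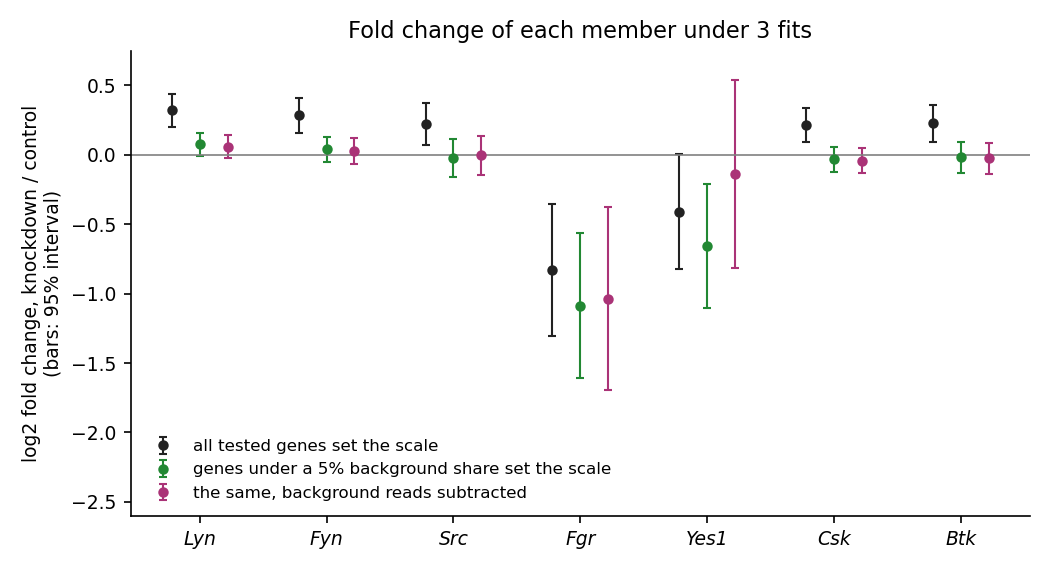
Log2 fold change of each member, knockdown-labelled over control, with 95% intervals, under 3 fits: TMM on all tested genes (black), TMM on genes under a 5% background share (green), and the same after subtraction of expected background reads (purple). Lyn, Fyn, Src, Csk and Btk move from 0.22 to 0.32 down to around 0, while Fgr stays between -0.83 and -1.09.

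Fgr, a Src family kinase of neutrophils, monocytes and macrophages, was the member called lower. It had 36, 36, 46, 44 and 23 reads in control replicates 1 to 5. The knockdown-labelled libraries had 16, 28, 22, 25 and 20 reads. Control replicate 5 lay within the knockdown-labelled range and the other 4 controls lay above it. Means were 6.94 ± 1.74 and 3.88 ± 0.737 CPM, or -0.83 on the log2 scale (SE 0.24, interval -1.31 to -0.35, adjusted p = 0.00302). In bulk RNA, fewer cells of a type and less RNA per cell cannot be told apart. Its background share was 29.8%, and of the 3886 tested genes with a share of 20 to 40% 49.2% were called lower, with a median of -0.58.

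Subtracting the expected background left 25.4 ± 8.05 Fgr reads per control library and 16.1 ± 4.79 per knockdown-labelled library. Fitted on the subtracted counts, Fgr was at -1.04 (SE 0.33, interval -1.70 to -0.38, adjusted p = 0.0325). In that fit 11.0% of all tested genes and 23.3% of those with a share of 20 to 40% were called lower, the latter with a median of -0.67, so a fall of this kind was shared by many genes of that share. The call rested on few reads. Without 1 library in turn the value ran from -1.22 to -0.92, and the call was lost in 6 of 10 such fits, those without control replicate 2, 3 or 4 or knockdown-labelled replicate 1, 3 or 5 (highest adjusted p = 0.0963). With vomeronasal receptor genes as the background measure it was at -1.04 (adjusted p = 0.00832). The neutrophil markers, whose median background share was 35.5%, moved the same way, with Mpo at -0.98 and Ltf at -0.92. Only 3 of these 9 markers were tested, and the fall was not particular to this list. Called lower were also 6 of 6 tested markers of neurons, 4 of 4 of fibroblasts and mural cells and 3 of 3 of endothelium. Of 7 tested astrocyte markers 1 was lower and 2 higher, and of 7 of the oligodendrocyte lineage 2 were lower and 1 higher. The part of any cell type in the Fgr result was not tested.

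Yes1, a close relative of Src found in most tissues, was near background. It had 48, 39, 35, 39 and 38 reads in the control libraries, of which 22.5 ± 3.33 were expected from background. The knockdown-labelled libraries had 25, 27, 39, 38 and 31 reads, with 11.8 ± 2.35 expected. The 2 groups overlapped in reads. Means were 7.45 ± 0.952 and 5.59 ± 0.999 CPM, or -0.41 on the log2 scale (interval -0.83 to 0.01, adjusted p = 0.0894, share 47.8%). After subtraction 17.3 ± 6.36 and 20.2 ± 6.74 reads were left, and the log2 fold change was -0.13 (interval -0.81 to 0.54, adjusted p = 0.832). That interval holds falls and rises alike, so no difference was detectable at this depth. With vomeronasal receptor genes as the background measure Yes1 was at -0.38 (adjusted p = 0.312), so the value after subtraction depended on that measure. On the scale of genes under a 5% share, without subtraction, Yes1 was called lower at -0.66 (adjusted p = 0.0145). In the main test the median over genes whose share lay between 40 and 70% was -0.89, and with background subtracted it was -0.99.

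**Figure D3:**
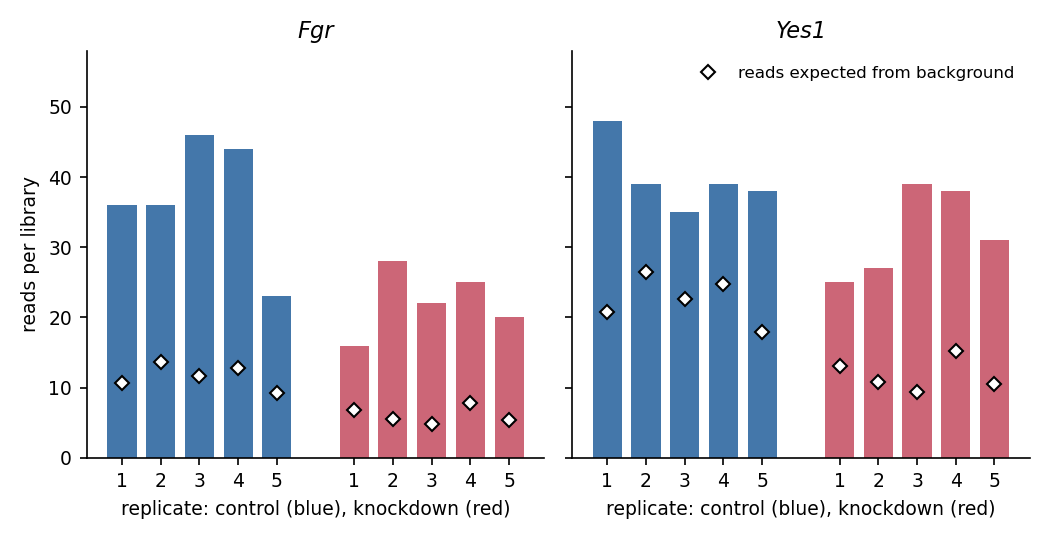
Reads of Fgr and Yes1 in each library (bars, blue control and red knockdown-labelled) and the reads expected from the background density (diamonds). In the control libraries the diamonds are at 31.4% of Fgr reads and 56.7% of Yes1 reads over the group, and in the knockdown-labelled libraries at 27.3% and 36.9%.

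Ratios to Lyn within a library need no scaling between libraries. The log2 ratio of Fyn to Lyn was -0.64 ± 0.0829 in control libraries and -0.68 ± 0.130 in those labelled knockdown. For Csk it was -0.70 ± 0.137 and -0.81 ± 0.0664, for Btk -1.38 ± 0.0906 and -1.48 ± 0.0815, and for Src -1.98 ± 0.180 and -2.08 ± 0.103. For these 4 genes the groups overlapped. The ratio of Fgr went from -4.76 ± 0.544 to -5.90 ± 0.288, with control replicate 5 inside the knockdown-labelled range. That of Yes1 went from -4.62 ± 0.227 to -5.37 ± 0.316 without overlap, and 25.2% of all tested genes were lower without overlap on this measure (0.0104% were higher). With background reads subtracted the Yes1 ratio was -5.87 ± 0.370 and -6.07 ± 0.486, with overlap, and the difference fell from -0.75 to -0.20. For Fgr the difference was -1.14 before and -1.07 after subtraction.

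**Figure D4:**
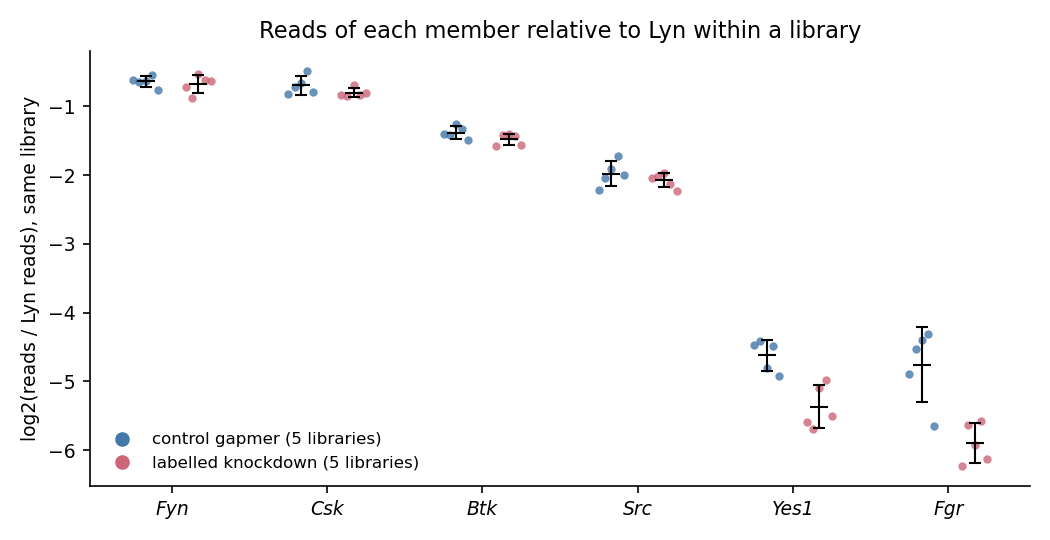
Log2 ratio of each member's reads to Lyn reads in the same library, 1 point per library, with mean and SD of 5 libraries. Fyn, Csk, Btk and Src overlap between groups, while Yes1 does not and Fgr overlaps through 1 control library.

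The pattern of each member over the 10 libraries was compared with 11314 other genes of at least 5 CPM by the root mean square difference in centred log2 CPM. Nearest to Lyn were Ppp1r12a (0.0412) and Capza2 (0.0415), to Fyn Galc (0.0314) and Clint1 (0.0389), and to Src Rnf4 (0.0503) and Ago1 (0.0542). Near to Btk was Sf1 (0.0379), and nearest to Csk were Tep1 (0.0264) and Clip1 (0.0320). These 9 genes had background shares under 5%. The nearest genes to Fgr were Ccdc14 (0.149, share 35.1%) and Grip2 (0.153, share 43.3%), and to Yes1 Palb2 (0.107, share 19.8%) and Fbxo25 (0.112, share 8.49%). The larger distances of Fgr and Yes1 went with a larger spread within groups, 0.33 and 0.21 on the log2 scale against 0.08 to 0.13 for the other members.

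The other genes of the pathway also divided by background share. Of 76 listed genes 74 were tested, 51 were called higher, 7 lower and 16 neither, with a median log2 fold change of 0.24. Of the 51 under a 5% background share 47 were higher and 0 lower, against 75.5% higher and 0.486% lower among all tested genes under that share. The counts of the single lists below stand beside the same shares, with 22.9% of all tested genes higher and 31.3% lower. These directions hold for TMM on all tested genes.

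Of 5 other Src-related kinases 0 were higher, 3 lower and 2 not called (median -0.74), and all 5 had background shares above 5%. The 3 lower ones were Ptk6 (-1.61, share 72.1%), Srms (-0.97, share 46.9%) and Frk (-0.64, share 36.4%), kinases known mainly from epithelia. With background subtracted Ptk6 was at -3.17 (interval -5.40 to -0.93), Srms at -1.21 and Frk at -0.70, with wider intervals than in the main test. None of the 3 passed there (adjusted p = 0.0538, 0.252 and 0.1701), and neither did Txk at -0.55 (0.215). Ptk6 had 6 reads per knockdown-labelled library on average, with 5.79 expected from background. Srms and Frk also lost their calls with no filter and in lane 7 alone, Srms without control replicate 2 (-0.83) or 4 (-0.86), and Frk without control replicate 4 (-0.49) or knockdown-labelled replicate 5 (-0.55). In the Tec family Tec was higher (0.20, adjusted p = 0.00455) and Txk (-0.65, share 50.8%), a kinase of T cells, was lower. Tec was at -0.04 on the scale of genes under a 5% share. Bmx and Zap70 did not pass the filter. Lymphocyte markers, with a median background share of 52.1%, were lower with these genes (4 of 7 tested), as were neuron markers (6 of 6 tested). The part of these cell types was not tested. Syk, the kinase that binds phosphorylated ITAMs, was at 267 ± 8.28 and 324 ± 10.8 CPM (0.28, SE 0.06, adjusted p = 7.5e-05, 0.03 on that scale).

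Of 17 partners of Csk, phosphatases and negative regulators 13 were higher, 0 lower and 4 not called (median 0.24). They included Ptprc (0.32), which dephosphorylates the inhibitory tyrosine of Src family kinases, Ptpra (0.31), a receptor phosphatase with the same action on Src, and Ptpn11 (0.34), the phosphatase SHP-2. On the scale of genes under a 5% share they were at 0.07, 0.07 and 0.10, with adjusted p of 0.0713, 0.0534 and 0.0632. Of 11 ITAM and integrin receptor genes, a list that also holds Csf1r and Hcst, 10 were higher and 0 lower (median 0.31). Named by smallest p were Fcgr4 (0.42), Fcgr1 (0.37) and the signalling chain Fcer1g (0.36). These 3 kept calls on that scale at 0.18, 0.13 and 0.12. With background also subtracted they were at 0.17, 0.11 and 0.09, and none of them passed (adjusted p = 0.0977, 0.120 and 0.0516).

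Of 11 receptors with ITIM motifs or their like, which recruit phosphatases and oppose the kinases, 6 were higher, 2 lower and 3 not called (median 0.19). Sirpa (0.31), which binds Cd47, Lilrb4a (0.35) and Clec12a (0.32) had the smallest p. On the scale of genes under a 5% share they were at 0.07, 0.11 and 0.07, with Clec12a no longer called (adjusted p = 0.126). Of 24 substrates and effectors 17 were higher, 1 lower and 6 not called (median 0.23), among them the adaptor Fyb (0.30), the kinase Prkcd (0.30) and the Src family substrate Hcls1 (0.35). On that scale Fyb (0.05, adjusted p = 0.189) and Prkcd (0.05, adjusted p = 0.274) lost their calls and Hcls1 (0.10) kept it. With background also subtracted Sirpa, Lilrb4a and Hcls1 were at 0.04, 0.09 and 0.08 and did not pass either (adjusted p = 0.265, 0.149 and 0.171). All 3 Btk partners were higher (median 0.24), namely Sh3bp5 (0.28), which binds and inhibits Btk, Gtf2i (0.24), a transcription factor that Btk phosphorylates, and Ibtk (0.19), an inhibitor of Btk. On the scale of genes under a 5% share these 3 were at 0.03, -0.0030 and -0.06. Spi1, the gene of PU.1, was higher in the main test (0.22, adjusted p = 0.0016) and at -0.03 on that scale, values close to those of Btk and Csk.

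**Figure D5:**
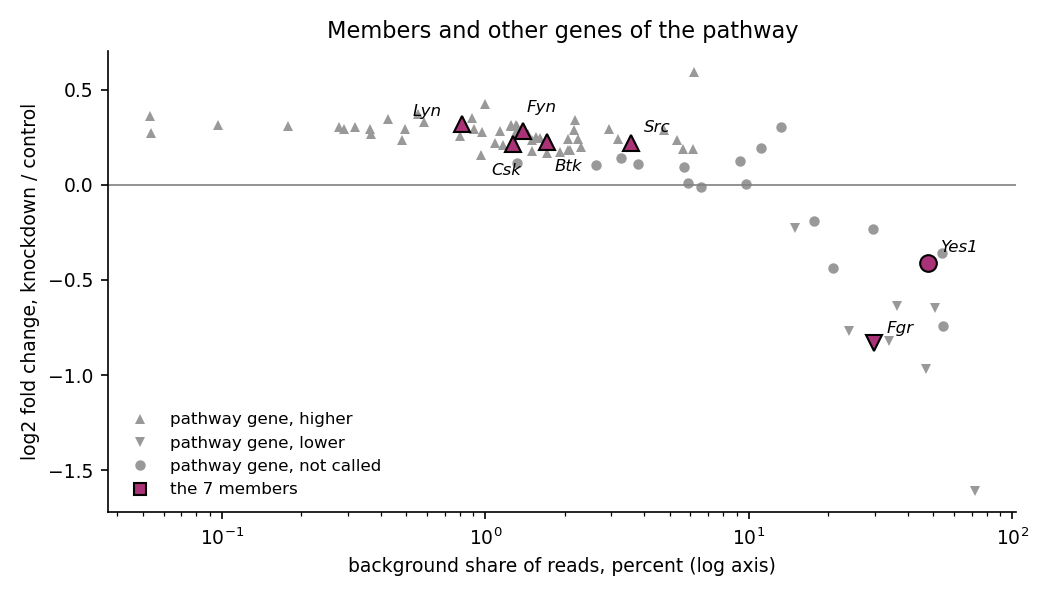
Log2 fold change, knockdown-labelled over control, against background share (log axis) for the 7 members (purple) and the 74 tested pathway genes (grey). Triangles point up for genes called higher and down for genes called lower, and circles were not called. Members and pathway genes with shares under 5% lie above 0, and Fgr and Yes1 lie among low genes with large shares.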

How the data were processed

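Total RNA of primary microglia was made into libraries with a SMARTer Stranded kit, which marks strand, per the labels' protocols. The authors deposited whole-number read counts per gene, 1 table per library, not normalized. The submitters' processing notes name bcl2fastq and the build GRCm38, also written mm10. Aligner, counter, strand setting and annotation: not given in the sources used here. Of 55563 entries 92 were spike-in sequences (0 to 2 reads a library) and were left out. GENCODE M21 gave symbols, coordinates and union exon lengths for 55230 of 55471 genes. Groups and replicate numbers came from the sample titles.

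Genes were filtered with filterByExpr, scaled with TMM and tested with the quasi-likelihood test of edgeR 4.0.16 (R 4.3.3, robust, with no term beside the group), with Benjamini-Hochberg adjustment over 19263 genes and a threshold of 0.05. The test was checked on counts simulated without a difference in background between groups, so that check does not bear on the choice of scale. The members, the pathway and marker lists and the alternatives were chosen with earlier results of these data known, and 2 alternatives were added after the values were seen. Genes named in the text were the members, Spi1, the target, the up to 3 genes per pathway list with the smallest p, and the 2 nearest genes per member by pattern. A few genes of the lists and of the nearest patterns are not reported here and are left out of the counts of the lists. Marker genes and those behind a count were named after their values were seen. Fits with DESeq2 1.42.0, limma 3.58.1 (voom), other scalings and filters, a replicate block, lane, and libraries left out were alternatives. Background subtraction set negative counts to 0. No pair of libraries of 1 group was as alike as counting noise allows (chi-square over its degrees of freedom, 1.76 to 4.48). Counts of 16 to 48 reads (Fgr, Yes1) limit precision far more than those of 202 to 1399 reads (the other members). Python 3.11.15 and matplotlib 3.10.9 drew the figures.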

Additional observations from a re-analysis of the deposited data

Results flagged for a closer look

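Among 60 groups of 5 libraries examined for the 30 named genes (nearest-pattern genes aside), 2 held a library far from the others of the group, where chance alone is expected to mark about 1 in 20. Txk, a Tec family kinase of T cells, was at 14.96 CPM in control replicate 2, and the other 4 control libraries were at 9.59 to 10.7 CPM. Frk, a Src-related kinase, was at 7.18 CPM in knockdown-labelled replicate 1, and the other 4 knockdown-labelled libraries were at 3.92 to 4.31 CPM. No member had such a library.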

How the results depend on the processing

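Each library left out in turn kept the counts of 5 members higher and 1 lower, with Lyn at 0.29 to 0.39 and Fgr at -0.95 to -0.73. The counts were also 5 and 1 with DESeq2, limma-voom, no filter, lane as a covariate and lane 7 alone. The replicate block gave 5 higher and 1 lower as well. Same-numbered libraries did not deviate together (correlations of deviations from group means -0.21 to 0.16), and 1 of the 5 numbers had its own number as best match. Upper-quartile scaling gave 2 members higher and 2 lower, and library totals 1 and 2. The scale of genes under a 5% share gave 0 and 2, and with background subtracted as well 0 and 1. A filter of 5 CPM in 5 libraries gave 2 higher, with Fgr not tested and Yes1 as the 1 lower (-0.53). Lane 8 alone gave 0 and 0, with 2 libraries a group. Over all tested genes the median change moved from -0.10 with TMM to -0.03 with DESeq2, -0.24 at the upper quartile, -0.30 for library totals, -0.34 on the scale of genes under a 5% share and 0.01 with the 5 CPM filter. All calls split into 4418 higher and 6033 lower with TMM, 4997 and 5055 with DESeq2, 1685 and 7195 at the upper quartile, 759 and 7888 for library totals, 312 and 8589 on the scale of genes under a 5% share, 153 and 2118 with background subtracted, 2057 and 2239 with the 5 CPM filter, and 67 and 153 in lane 8. On the scale of genes under a 5% share, without and then with subtraction, values turned negative for Src (-0.023 and -0.0047), Btk (-0.019 and -0.024), Csk (-0.031 and -0.043), Spi1 (-0.026 and -0.048), Tec (-0.042 and -0.053), Ibtk (-0.056 and -0.011) and Gtf2i (-0.0030 and -0.0039), none of them called, and Tec was at -0.0010 and Ibtk at -0.015 with library totals. The control-to-knockdown ratio of the background density was 2.33, 2.51 with vomeronasal receptors, 2.65 in lane 7, 1.93 in lane 8 and 2.12 to 2.55 with 1 library left out.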
